A study of Danio rerio with 4 samples.

Results

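The genes described here are the zebrafish Survivin paralogs birc5a and birc5b and the mitotic proteins that work with them, 7 genes in all: birc5a, birc5b, cdca8, incenp, aurkb, aurka and plk1. The starting point was birc5b, which had been picked for the largest fall in a list of maternal genes in the same expression values, and its paralog and partners were then set beside it. Of the 7 genes, 5 (birc5a, birc5b, cdca8, aurkb and plk1) had a RefSeq transcript among the 15936 RefSeq transcripts of the expression table, 1 transcript each. aurka and incenp had none. Among long-read transcripts, 6 of the 7 genes had at least 1 transcript model in each library, and incenp had 0 models in both.

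Survivin is a small protein of the inhibitor-of-apoptosis family that serves as a subunit of the chromosomal passenger complex. In that complex the scaffold Incenp, Survivin and Borealin (the product of cdca8) bring the kinase Aurora B to centromeres in early mitosis and to the spindle midzone and cleavage furrow later, where it corrects chromosome attachments and promotes cytokinesis. Aurora A, its relative, acts at centrosomes and spindle poles and activates Polo-like kinase 1, which drives entry into mitosis and spindle assembly. The cleavage divisions of the early zebrafish embryo run on maternal mRNA and protein laid down in the egg. In zebrafish, birc5b and aurkb are known maternal-effect genes: embryos from the mutant mothers motley and cellular island, respectively, fail in early cell division.

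The series holds 4 pooled embryo samples, 1 per group. The long-read (PacBio) libraries came from polyadenylated RNA of 15 wild-type embryos each, of AB, TAB14 or TAB5 background, either untreated or injected between the 1- and 4-cell stages with 0.2 nmol of α-amanitin, an inhibitor of RNA polymerase that blocks zygotic genome activation (ZGA). They are called the amanitin library and the untreated library below. Both carry a stage label of 6 hours post fertilization (hpf), but the source names disagree with it in part, giving the 256-cell stage for the injected embryos and epiboly for the untreated ones. The short-read libraries came from about 20 untreated embryos each, at 2.5 and 5.25 hpf, and their own files were not analysed here. The expression table has 1 column headed control and 1 headed α-amanitin (the amanitin column below), read here in TPM, a transcript level corrected for length and scaled to a fixed total. The columns were assigned to the long-read groups by name. The sources do not say which reads were quantified, and if they were the short reads, the ratios set uninjected embryos of different stages against each other. There is 1 library per group, so differences have no replicate check and no test is possible. The depth of the TPM values and the read number behind each long-read model are unknown.

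Zygotic, enveloping layer and yolk syncytial layer markers separated the columns widely. The summed level of 8 of 8 zygotic gastrula genes (vox, ved, tbx16, tbxta, gsc, foxd3, noto and sox17) was 2168 TPM in the control column and 4.17 TPM in the amanitin column, where foxd3 was listed at 0. All 5 enveloping layer markers were higher in the control column too, with sums of 4443 and 12.6 TPM, as were all 4 yolk syncytial layer markers, with 2723 and 3.63 TPM. The 4 germ cell markers (ddx4, dnd1, nanos3 and tdrd7a) summed to 55.1 and 299 TPM, with dnd1, nanos3 and tdrd7a at least 2-fold lower in the control column and ddx4 at 25.2 TPM there against 33.9 TPM. Long-read models did not show this separation. Of the zygotic and yolk syncytial layer markers, 0 had a model in either library, although vox was at 439 TPM and apoeb at 2489 TPM in the control column. Of the enveloping layer markers, 2 had a model in the untreated library and 1 in the amanitin library (krt8, at 1184 TPM in the control column). The reason was not tested. The part of these markers in the differences below was not tested either. The pools are whole embryos, in which fewer cells of a type and less RNA per cell cannot be told apart.

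The Survivin paralogs differed in opposite directions between the columns. birc5b (NM_145195) was at 683 TPM in the amanitin column and at 5.92 TPM in the control column, a 116-fold difference. Its log2 ratio, control over α-amanitin on the log2(TPM + 1) scale used throughout, was −6.63, the 20th lowest of 15936 RefSeq transcripts. birc5a (NM_194397) was at 2.41 TPM in the amanitin column and at 8.83 TPM in the control column, a log2 ratio of 1.53. In the control column both paralogs were under 10 TPM, whereas in the amanitin column only birc5a was.

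In the amanitin column birc5b exceeded birc5a 284-fold and made up 99.6% of the RefSeq TPM of the pair. In the control column the ratio of birc5b to birc5a was 0.670, and birc5b made up 40.1%. The 2 log2 ratios differed by 8.16. The summed level of the pair was 686 TPM in the amanitin column and 14.7 TPM in the control column, a log2 ratio of −5.45. The sum of the pair therefore followed birc5b, not birc5a. Among 893 gene pairs of the table whose symbols differ by a final a or b and that reached 1 TPM in either column, 134 (15.0%) were at least 2-fold changed in opposite directions, and 12 (1.34%), this pair included, lay at least as far apart as birc5a and birc5b. The birc5 genes were chosen on this contrast, so these shares only place them. In the RefSeq annotation of assembly GRCz12tu, birc5a overlaps the gene tmem235b, and reads of the 2 genes may not be fully separable.

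The other subunits with a value were cdca8 and, among the partners listed for comparison, its paralog cdca9 (Dasra A). cdca8 (NM_001007456) was at 6.72 TPM in the amanitin column and at 17.0 TPM in the control column, a log2 ratio of 1.22. cdca9 went the other way: its 3 RefSeq transcripts summed to 108 TPM in the amanitin column and 2.28 TPM in the control column, a log2 ratio of −5.05. All 3 cdca9 transcripts were lower in the control column, at 86.8 against 1.90 TPM for NM_001202427, at 14.1 against 0.380 TPM for NM_001202426, and at 6.78 TPM against a listed 0 for NM_001202428.

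The Borealin genes also differed in opposite directions. cdca9 exceeded cdca8 16.0-fold in the amanitin column and made up 94.1% of the RefSeq TPM of the pair. In the control column cdca8 exceeded cdca9 7.45-fold and cdca9 made up 11.8%. However, cdca9 had 4 long-read models in each library, so its low control value goes beside a detected transcript. The pair summed to 114 TPM in the amanitin column and 19.3 TPM in the control column, a log2 ratio of −2.51. For incenp, the scaffold that binds all the other subunits, the RefSeq table names predicted transcripts only, and no value was found in either kind of file.

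The kinases with a value were both lower in the control column. aurkb (NM_212566), the enzyme of the passenger complex, was at 792 TPM in the amanitin column and 109 TPM in the control column, a 7.26-fold difference and a log2 ratio of −2.85. plk1 (NM_001003890) was at 428 TPM in the amanitin column and 107 TPM in the control column, a 3.99-fold difference and a log2 ratio of −1.99. Unlike birc5b, both remained above 100 TPM in the control column. aurka has no RefSeq row, so its level is not known. Its transcript NM_001003640 is 1 of 118 (1.51%) of the 7813 RefSeq transcripts named by long-read models that have no row in the expression table.

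**Figure D1:**
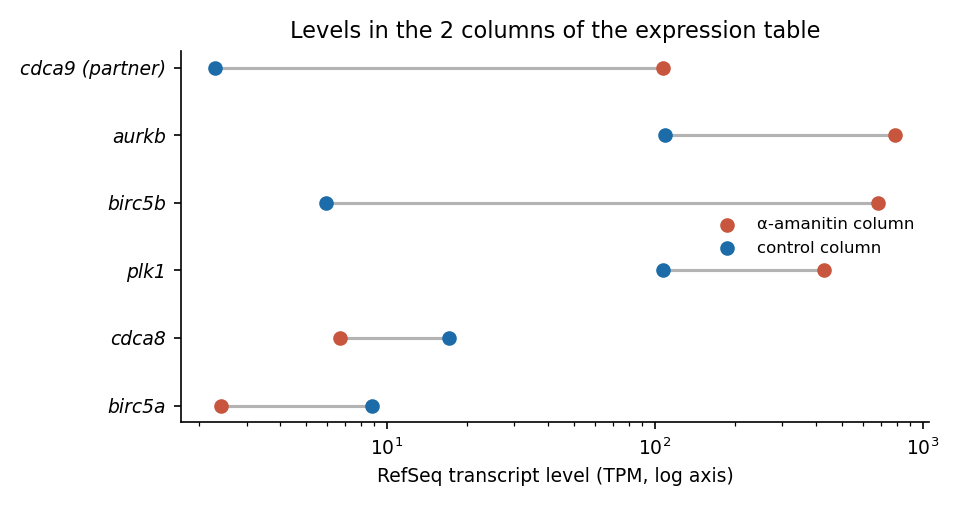
Levels of the 5 members with a RefSeq row and of the partner cdca9 (sum of 3 transcripts), in TPM on a log axis. Red points are the amanitin column and blue points the control column, 1 library each, joined by a grey line. The line of birc5b, from 683 to 5.92 TPM, is the longest, and only birc5a and cdca8 have the blue point to the right.

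The order of the levels differed between the columns only in the place of birc5b. Since birc5b was picked for its fall in these same values, nothing is read from that change. In the amanitin column aurkb was highest (792 TPM), followed by birc5b (683 TPM) and plk1 (428 TPM), with cdca8 (6.72 TPM) and birc5a (2.41 TPM) far below. aurkb, birc5b and plk1 ranked 37th, 56th and 121st among the 15936 RefSeq transcripts there. In the control column aurkb (109 TPM) and plk1 (107 TPM) were almost level, with a ratio of 1.02, and ranked 648th and 662nd. They were followed by cdca8 (17.0 TPM), birc5a (8.83 TPM) and birc5b (5.92 TPM), which ranked 3778th, 5371st and 6353rd. With no replicates, it cannot be said which neighbours in these orders differ. In the amanitin column the birc5b level was 0.863 of the aurkb level, and in the control column 0.0543 of it. The 5 members together took 1913 TPM in the amanitin column and 248 TPM in the control column.

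Counted against the whole table, 3 of the 5 members (birc5b, aurkb and plk1) were at least 2-fold lower in the control column, where 24.6% of all RefSeq transcripts were. The other 2 members, birc5a and cdca8, were past 2-fold in the other direction, where 22.6% of all RefSeq transcripts were. Of the 832 RefSeq transcripts that reached 100 TPM in the amanitin column, as all 3 lower members do, 54.2% were at least 2-fold lower in the control column. The median log2 ratio was −1.99 over the 5 members, 0.00 over all RefSeq transcripts and −0.21 over those with at least 1 TPM in either column. Since birc5b was picked for its fall in these values and the others were chosen with earlier results known, nothing is read from these counts. Rescaling the columns to a median TPM ratio of 0 on the log2 scale, over the 18840 transcripts of at least 1 TPM in both, added 0.52 to each log2 ratio (the median before was −0.52). The ratios became −6.11 for birc5b, −2.33 for aurkb, −1.47 for plk1, 1.74 for cdca8 and 2.05 for birc5a, so each kept its direction and its side of 2-fold. Rescaled, 17.6% of all RefSeq transcripts were at least 2-fold lower and 31.3% at least 2-fold higher, and nothing is read from the members' counts of 3 and 2 here either.

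**Figure D2:**
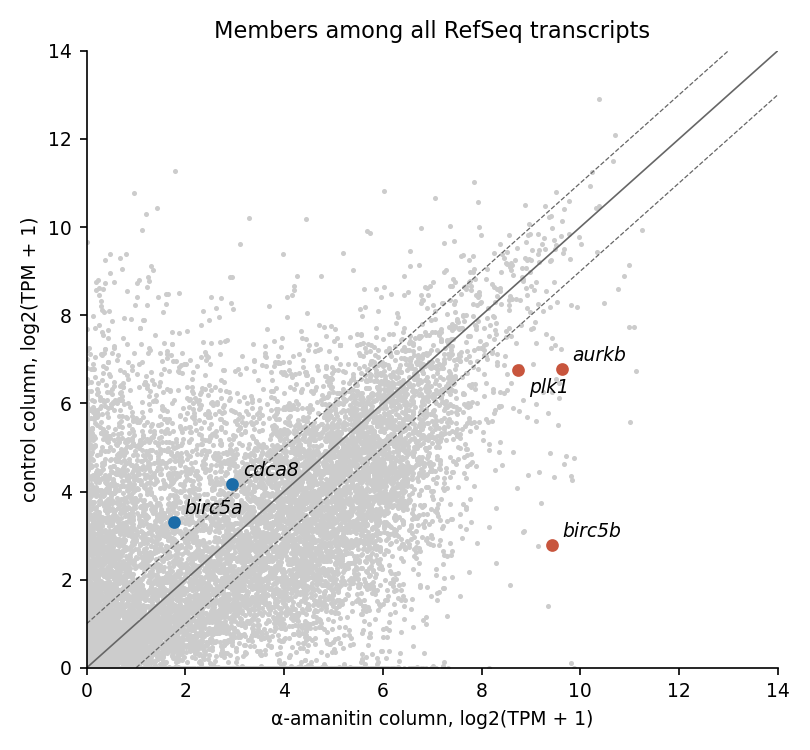
Every RefSeq transcript (grey) by its log2(TPM + 1) in the amanitin column (horizontal) and the control column (vertical), with the 5 members in red (lower in the control column) and blue (higher). The solid line marks equal values and the dashed lines a 2-fold difference. birc5b lies at the lower right edge of the cloud, while birc5a and cdca8 lie just above the upper dashed line.

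Few transcripts shared the pattern of birc5b. By distance in the 2 log2(TPM + 1) columns, 4 other RefSeq transcripts lay within a distance of 1 of it. The nearest 5 named transcripts were cbx3a (a heterochromatin protein 1 gene; distance 0.276), with 565 against 5.80 TPM, zgc:162879 (0.647), with 459 against 7.49 TPM, lipg (an endothelial lipase gene; 0.649), with 461 against 7.60 TPM, kpna7 (an importin alpha gene; 0.964), with 586 against 12.3 TPM, and zgc:56231 (1.20), with 312 against 4.23 TPM, amanitin column first. The neighbourhood of birc5a was crowded, with 613 transcripts within the same distance. Its nearest 5 were grk1a, pcdh15a, efna5b, serf2 and ass1, at distances of 0.013 to 0.115 and with control levels of 8.08 to 9.24 TPM. Likeness over 2 values is a description of level and says nothing about shared control. Since birc5b was picked for its fall in these same values, its small number of neighbours is not read as a result.

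Long-read models gave a view of the same genes that does not rest on the TPM values. A model is a collapsed, non-redundant transcript structure, counted once whatever its abundance. The 6 genes found had 13 models in the amanitin library and 9 in the untreated library. For birc5b and for aurka, 3 models came from the amanitin library and 1 from the untreated one. The remaining 4 genes had equal numbers: 1 and 1 for birc5a and cdca8, 2 and 2 for aurkb, and 3 and 3 for plk1. Thus 2 of 6 genes had more models in the amanitin library and 0 had more in the untreated library. Among all 7662 genes with a model, 31.4% had more in the amanitin library and 27.9% more in the untreated library. All 6 genes had models in both libraries, as did 72.2% of the genes with a model. Of the 14792 gene symbols of the expression table, 43.6% had a model in the untreated library and 44.3% in the amanitin library.

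Both Survivin paralogs were found in both long-read libraries, although their RefSeq levels differed widely. Of the 7917 genes whose summed RefSeq level stayed under 10 TPM in both columns, as birc5a does, 16.2% had a model in both libraries. Of the 352 genes at 100 TPM or more in both columns, as aurkb and plk1 are, 88.6% had one. The expression table counts transcripts with PacBio identifiers separately from RefSeq transcripts, and they take 58.8% of all TPM in the amanitin column and 55.6% in the control column. They could not be joined to genes, so reads given to a PacBio transcript of birc5a or any other member are missing from the levels above, and each ratio is that of the RefSeq transcript.

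The structures of the models differed between the paralogs. For birc5a, the only model in each library shared all introns with the RefSeq transcript (Cuffcompare class =) but was much shorter than its 1204 bases, at 736 bases in the amanitin library and 729 bases in the untreated one. Among class = models, 3.55% in the amanitin library and 4.07% in the untreated library were as short against their reference. The missing 468 and 475 bases are of nearly the same size in the libraries, and the tables do not say from which end they are missing. For birc5b, the class = models ran past the 489 bases of the RefSeq transcript, to 569 bases in the amanitin library and 574 bases in the untreated one, and 13.3% and 11.7% of class = models were as long against their reference. The amanitin library also held a birc5b model of 638 bases with at least 1 shared splice junction but another structure (class j) and a contained one of 384 bases (class c).

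Among the kinases, the class = models of plk1 exceeded the 2344 bases of its reference, at 2673 bases in the amanitin library and 2529 bases in the untreated one. Those of aurkb exceeded 1185 bases, at 1334 and 1278 bases. Shares of class = models as long against their reference were 14.8% and 19.1% for plk1 and 15.8% and 19.3% for aurkb. Those of aurka, at 1742 and 1737 bases, were close to the reference length of 1732 bases. Contained models were found for aurkb in both libraries (527 and 514 bases), for plk1 in both (1211 bases in the amanitin library, 1723 and 296 bases in the untreated one), and for aurka in the amanitin library (1136 bases). Class j models of aurka (1775 bases) and plk1 (1966 bases) were found in the amanitin library alone. cdca8 had no class = model: its single model in each library was of class j, at 1195 bases in the amanitin library and 1535 bases in the untreated one, against a reference of 1865 bases. Of the 5 class j models of these genes, 4 were in the amanitin library, against 52.8% of the class j models of all loci, a count too small to compare. A model found in 1 library may have been missed in the other, since the number of reads is unknown.

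**Figure D3:**
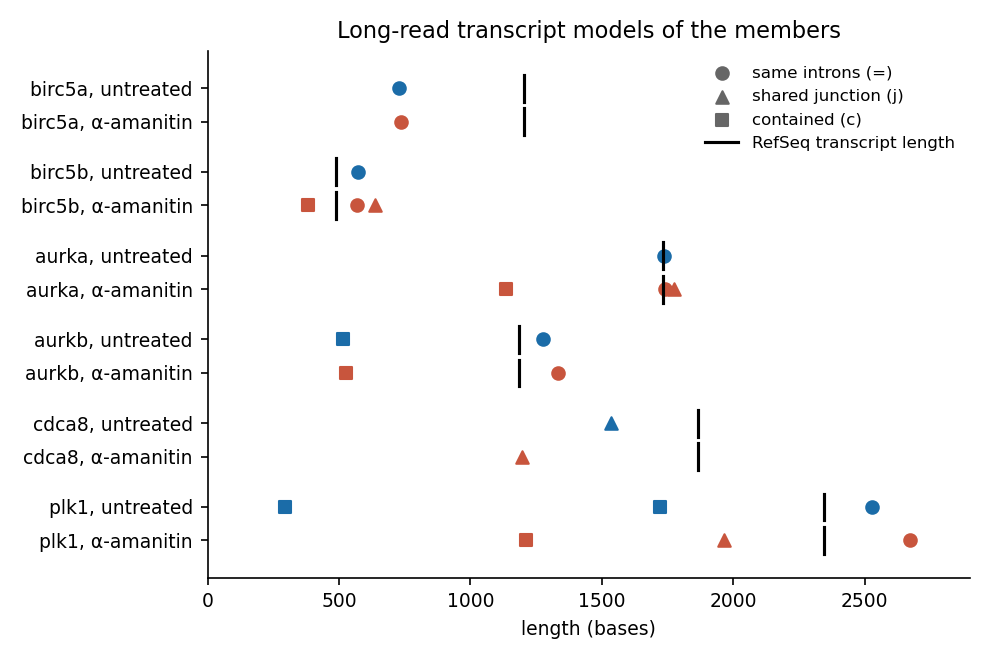
Lengths in bases of all 22 long-read models of the 6 members found, by gene and library (blue for untreated, red for α-amanitin). Circles share all introns with the RefSeq transcript, triangles share at least 1 junction, squares are contained in it, and black bars mark the RefSeq length. Both birc5a models stop well short of the bar at 1204 bases, and the birc5b circles lie beyond the bar at 489 bases.

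Other genes of mitosis and of the apoptosis family were read from 5 lists, with RefSeq transcripts summed per gene and against a background of 14792 genes, of which 25.7% were at least 2-fold lower in the control column and 22.5% past 2-fold upwards, and whose median log2 ratio was 0.00. With the 0.52 of the rescaling added, those shares were 18.3% and 31.3% and the median 0.52. Of 11 passenger complex and centromere partners, 6 had a row, of which 4 were at least 2-fold lower, 0 higher, and the median log2 ratio was −2.17. Besides cdca9 these were sgo1, a protector of centromeric cohesion (30.4 TPM in the amanitin column against 0.000417 TPM), the kinetochore kinesin cenpe (193 against 41.9 TPM) and the centrosomal kinase nek2 (215 against 47.2 TPM). For sgo1 there was 1 long-read model in the amanitin library and 2 in the untreated library, so its near-zero control value goes beside a detected transcript. In the amanitin library cenpe had 0 models, beside its 193 TPM in the amanitin column, and nek2 had 1, against 2 each in the untreated library. A model is counted once whatever its abundance, so these numbers do not measure level. Rescaled, the list kept 4 lower and 0 higher. sgo2 entered the list as unchanged because it was at or near 0 in both columns, although it had 2 models in each library. Of RefSeq transcripts of at least 100 TPM in the amanitin column, as cenpe and nek2 are, 54.2% were at least 2-fold lower.

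Of 21 regulators of Aurora A, Plk1 and mitotic entry, 15 had a row, of which 7 were at least 2-fold lower, 1 at least 2-fold higher, and the median log2 ratio was −0.56. The largest differences downwards were those of fbxo5, the Emi1 inhibitor of the anaphase-promoting complex (20.3 TPM in the amanitin column and listed at 0 in the control column, beside 4 long-read models in the untreated library), of bora, the Aurora A cofactor for Plk1 activation (68.5 against 12.4 TPM, log2 ratio −2.38), of mastl, the Greatwall kinase (120 against 27.1 TPM, −2.11), and of the Polo-family kinase plk2b (3.99 against 0.474 TPM, −1.76). The gene past 2-fold upwards was tpx2, the spindle factor that activates Aurora A, at 14.4 TPM in the amanitin column and 104 TPM in the control column (2.76). It was followed by the inhibitory kinase wee1 (0.80) and the phosphatases cdc25b (0.70) and cdc25d (0.13), all within 2-fold. Rescaled, the list had 4 genes lower and 3 higher, with a median of −0.04. Over all genes, 25.7% were lower and 22.5% higher before rescaling, and 18.3% and 31.3% after it, with a median of 0.52. The shift is common to the list and to all genes, so nothing is read from the changed counts. fzr1a was listed at 0 in both columns although it had models in both long-read libraries.

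Of 22 kinetochore and spindle checkpoint genes, 15 had a row, of which 8 were at least 2-fold lower, 1 higher, and the median log2 ratio was −1.01. Among them the checkpoint factor zw10 was at 46.0 TPM in the amanitin column and 7.62 TPM in the control column (log2 ratio −2.45), the checkpoint kinase ttk (Mps1) at 26.9 against 4.48 TPM (−2.35) and the microtubule-binding subunit ndc80 at 187 against 38.4 TPM (−2.25). spc24, a partner of ndc80, was at 5.75 TPM in the amanitin column and listed at 0 in the control column, and pttg1, the separase inhibitor securin, was at 11.5 TPM in the control column and listed at 0 in the amanitin column. Beside these zeros, spc24 had 2 long-read models in the untreated library and pttg1 had 1 in the amanitin library. mad1l1 was the next highest ratio among those above 1 TPM, at 0.26. Rescaled, 4 genes were lower and 1 higher. Shares over all genes were 25.7% lower and 22.5% higher, and 18.3% and 31.3% rescaled. Of RefSeq transcripts of at least 100 TPM in the amanitin column, as ndc80 is, 54.2% were at least 2-fold lower.

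Of 17 central spindle and cytokinesis genes, 11 had a row, of which 6 were at least 2-fold lower, 2 higher, and the median log2 ratio was −1.01. The microtubule bundling gene prc1b was at 62.9 TPM in the amanitin column and 0.636 TPM in the control column (log2 ratio −5.29), the spindle kinesin kif11 at 327 against 28.9 TPM (−3.46), and the chromokinesin kif4 at 170 against 24.7 TPM (−2.74). Long-read models numbered 2 for prc1b, 1 for kif11 and 3 for kif4 in the amanitin library, against 1, 3 and 2 in the untreated one. Among those higher in the control column was the microtubule depolymerase and Aurora B substrate kif2c, at 2.12 TPM in the amanitin column and 13.5 TPM in the control column (2.22). The other gene past 2-fold upwards, not reported here by name, had a larger log2 ratio of 6.75. prc1a (0.87) and racgap1 (0.38) were within 2-fold. Rescaled, 4 genes were lower and 3 higher. The shares over all genes were again 25.7% lower and 22.5% higher, and 18.3% and 31.3% rescaled. kif11 and kif4 also reached 100 TPM in the amanitin column, where 54.2% of such RefSeq transcripts were at least 2-fold lower.

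The last list joined the inhibitor-of-apoptosis family, to which Survivin belongs by structure, with the caspase pathway. Of its 12 genes, 10 had a row, of which 3 were at least 2-fold lower and 3 higher, shares near those over all genes, and the median log2 ratio was −0.16. Rescaled, 2 genes were lower and 3 higher. The family members birc2 (2.26 TPM in the amanitin column against 19.5 TPM in the control column, log2 ratio 2.65) and birc7 (0.742 against 3.62 TPM, 1.41) were higher in the control column. xiap, the direct caspase inhibitor, was at 17.7 against 9.57 TPM (−0.82). The antagonists of this family were split by paralog, with diabloa at 10.3 against 54.5 TPM (2.29) and diablob at 79.1 against 25.1 TPM (−1.62). apaf1, the apoptosome scaffold, was at 46.6 against 11.7 TPM (−1.90), although it had 0 long-read models in the amanitin library and 1 in the untreated one. The caspase genes casp3b (1.57 against 0.257 TPM, −1.03) and casp3a (47.5 against 59.1 TPM, 0.31) complete the genes named for this list. The lowest ratio in this list, −1.90 for apaf1, was far from the −6.63 of birc5b. Since birc5b was picked for its fall in these same values, nothing is read from that distance.

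**Figure D4:**
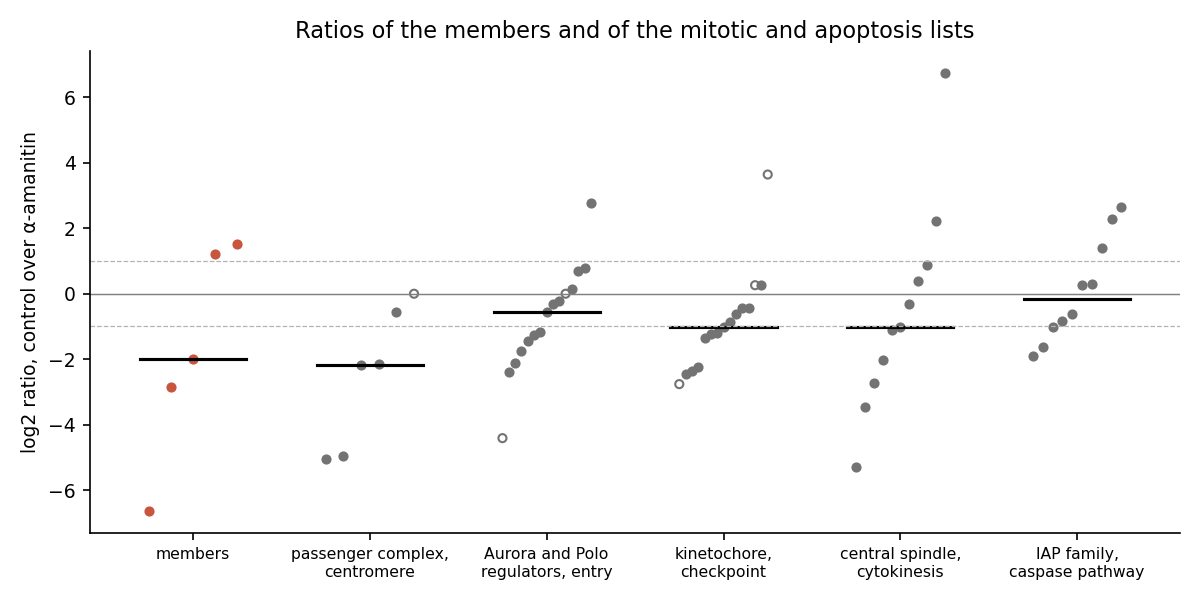
Log2 ratios, control over α-amanitin on the log2(TPM + 1) scale, of the 5 members (red, single transcripts) and of the genes with a row in 5 lists (grey, summed per gene). Open circles are genes listed at 0 in at least 1 column, black bars are medians, and dashed lines mark 2-fold. The medians run from −2.17 for the passenger complex and centromere partners to −0.16 for the apoptosis list, and birc5b has the lowest value plotted.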

How the data were processed

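Long-read transcripts were assembled with IsoSeq, mapped to GRCz10 with GMAP and compared with a reference by Cuffcompare, per the labels of the series. Lengths of models and references are in bases. The FPKM and coverage values deposited there were all 0 and were not used. The deposited expression table holds log2(TPM + 1) values for 32575 transcripts: the unit was read from the values, which sum to 1000000 TPM per column. kallisto is named, with no role or version, per the submitters' processing notes. No quantified library or filter is stated in the sources used here. Unused columns of per-sample values numbered 0.

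RefSeq rows were named from the Cuffcompare tables, else from a RefSeq gene table of GRCz12tu, of which no coordinates are given (15455 of 15936, 97.0%). Log2 ratios used a pseudocount of 1 TPM, which understates changes of low transcripts, and a 2-fold threshold. In lists, the 4 largest falls and rises among genes of at least 1 TPM in either column were named, and for birc5a and birc5b the 5 nearest transcripts. Some genes that this rule names are not reported here. The members and lists were chosen with earlier results of these data known. With 1 library per group no test was made. The ratio and rescaling steps were tested on simulated data without noise, in which few transcripts changed besides a common shift. How rescaling behaves where many transcripts differ, as here, was not tested. Alternatives were another pseudocount, rescaling, a 4-fold threshold, a minimum level, and stricter rules for models. Python 3.11.15, numpy 2.4.6, pandas 2.3.3 and matplotlib 3.10.9 were used.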

Additional observations from a re-analysis of the deposited data

How the results depend on the processing

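All 5 members kept their direction under each alternative run. With a pseudocount of 0.1 TPM the log2 ratios were 1.83 for birc5a, −6.83 for birc5b, −2.86 for aurkb, 1.33 for cdca8 and −1.99 for plk1, and birc5a and birc5b differed by 8.66. Rescaled to a median of 0, they were 2.05, −6.11, −2.33, 1.74 and −1.47, and the median over the members was −1.47. At 4-fold, 2 members were lower (birc5b and aurkb) and 0 higher, since birc5a, cdca8 and plk1 lie between 2- and 4-fold. The share of all RefSeq transcripts past 4-fold was not computed, so nothing is read from these counts. Summing transcripts per symbol or asking for 1 TPM in either column could not move these values, as each member has 1 RefSeq transcript above that level.

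List medians with a pseudocount of 0.1 TPM were −2.19 (passenger complex), −0.60 (Aurora and Polo regulators), −1.03 (kinetochore, with 2 genes higher), −1.02 (central spindle) and −0.20 (apoptosis). Rescaled, they were −1.65, −0.04, −0.49, −0.49 and 0.36 in the same order, so the last changed sign. The median over all genes moved from 0 to 0.52 by the same shift, and the last list lay below it both times. The Aurora and Polo list then had 4 genes lower and 3 higher and the kinetochore list 4 lower, all by construction of a common shift. Without genes under 1 TPM in both columns, the medians were −2.18, −0.86 and −1.10 for the first 3 lists. Asking for at least 2 models left 4 members in the amanitin library and 2 in the untreated one. The libraries differed here through birc5b and aurka, with 3 models in the amanitin library and 1 in the untreated one. The share of all genes under this rule was not computed, so nothing is read from these counts. Class codes = and j alone, or models of at least 500 bases, left 6 members in each.

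A difference between aurka and aurkb was not run, since aurka has no RefSeq row. No paired analysis was possible because each group has 1 sample and no test was made. Unknown depth limits every value below about 1 TPM.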

Other observations

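The opposite ratios of birc5a and birc5b have counterparts among other a and b gene pairs, named here after their values were seen. Of the 134 pairs past 2-fold in opposite directions, the a gene was the higher in the control column in 65 and the b gene in 69. The SoxB1 pair sox19a and sox19b was among the furthest apart, with sox19a at 0.297 TPM in the amanitin column and 422 TPM in the control column, and sox19b at 364 and 77.4 TPM. tbl1xr1a, a corepressor gene, was at 2.31 TPM in the amanitin column and 33.4 TPM in the control column, and its partner tbl1xr1b at 128 and 0.0235 TPM. Within the mitotic lists, prc1a was within 2-fold (35.9 TPM in the amanitin column and 66.2 TPM in the control column) while prc1b was at 62.9 and 0.636 TPM. The values are those of RefSeq transcripts alone, without PacBio transcripts of the same genes.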
